A study of Caenorhabditis elegans with 37 samples.

Results

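Neuropeptide receptor genes were followed across libraries of sorted Caenorhabditis elegans cells. Genes were taken by name from the deposited count table: symbols beginning npr-, frpr-, dmsr-, ckr-, tkr-, nmur-, ntr- or gnrr- with a number, plus pdfr-1 and egl-6. The rule gave 96 genes of the 30631 in the table (42 npr, 20 frpr, 15 dmsr, 7 gnrr, 3 nmur, 3 tkr, 2 ckr and 2 ntr genes, pdfr-1 and egl-6), and the annotation lists all 96 as protein coding. The rule uses names alone and no measured value.

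Bulk RNA-seq was run on 37 libraries in 10 groups, all from untreated worms fed bacteria on agar plates. The labels name 8 neuron types obtained by fluorescence-activated cell sorting: ASG (4 libraries), AWA (4), AWB (5), PVD (2), AVE (3), AVG (3), DD (3) and VD (4). ASG, AWA and AWB are sensory neurons of the head, PVD is a branched nociceptive neuron of the body wall, AVE and AVG are interneurons, and DD and VD are GABAergic motor neurons. A pan-neuronal group (5 libraries) was sorted by a pan-neuronal marker labelled Rab3, and an all-cell group (4) was sorted only by stains that tell living from dead cells. The sources used here give no strain, reporter allele, developmental stage or number of cells. They also do not say whether the libraries within a group are separate cultures, and p-values therefore reflect only how much these libraries vary, which may be technical.

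Neuropeptides are cut from larger precursors, packed into dense core vesicles and released away from classical synapses. Most act on G protein-coupled receptors, so a neuron that carries the receptor can respond to a peptide released at a distance. The worm receptors fall into groups that resemble receptors of other animals: relatives of neuropeptide Y receptors (many npr genes), receptors for FMRFamide-like peptides (frpr, egl-6 and several npr genes), relatives of insect myosuppressin receptors (dmsr), and counterparts of the receptors for cholecystokinin (ckr), tachykinins (tkr), neuromedin U (nmur), oxytocin and vasopressin (ntr), gonadotropin-releasing hormone (gnrr) and pigment-dispersing factor (pdfr-1).

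Levels are given as CPM, each count divided by its library's TMM-adjusted total in units of 1e+06 counts, with the SD over libraries. Differences are log2 values from 1 edgeR quasi-likelihood fit over all 37 libraries, with their standard error (SE). A gene was called at an adjusted p under 0.05 over the 15181 genes that passed the filter on low counts. Of the 96 receptor genes 87 passed that filter, and the other 9 are described near the end. Library totals ran from 251586 to 5415925 counts, and the AWB (251586 to 951675) and PVD (469314 and 763634) libraries were among the shallowest.

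Several libraries stood apart from their group. AWB 51 held 958 CPM of the 10 pan-neuronal marker genes together and 123.9 CPM of the AWB markers, against 865 to 3559 CPM of the AWB markers in the other 4 AWB libraries. AWA 20 held 1230 CPM of the 4 AWA markers, against 3159 to 14416 in the other 3. Pan-neuronal 1 held 440.4 CPM of the AWA markers against 20.7 to 26.4 in the other 4 pan-neuronal libraries, 1057 CPM of the ASG markers against 305.2 to 345.1, and 239.3 CPM of the AWB markers against 61.2 to 74.1. Its sum over the 10 pan-neuronal marker genes was 30105 CPM, against 21257 to 22118. All-cell 27 held 314.9 CPM of the AVE markers, against 20.9 to 33.2 in the other 3. Each type's marker list was called higher than in the other types for at least 3 of its genes in ASG, AVE, AVG, AWA, AWB and PVD, but the AVE list was higher in AVG (mean 942.8 CPM) than in AVE (466.1 CPM), and the AVG list was higher in the pan-neuronal group (1016 CPM) than in AVG (788.7 CPM).

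**Figure D1:**
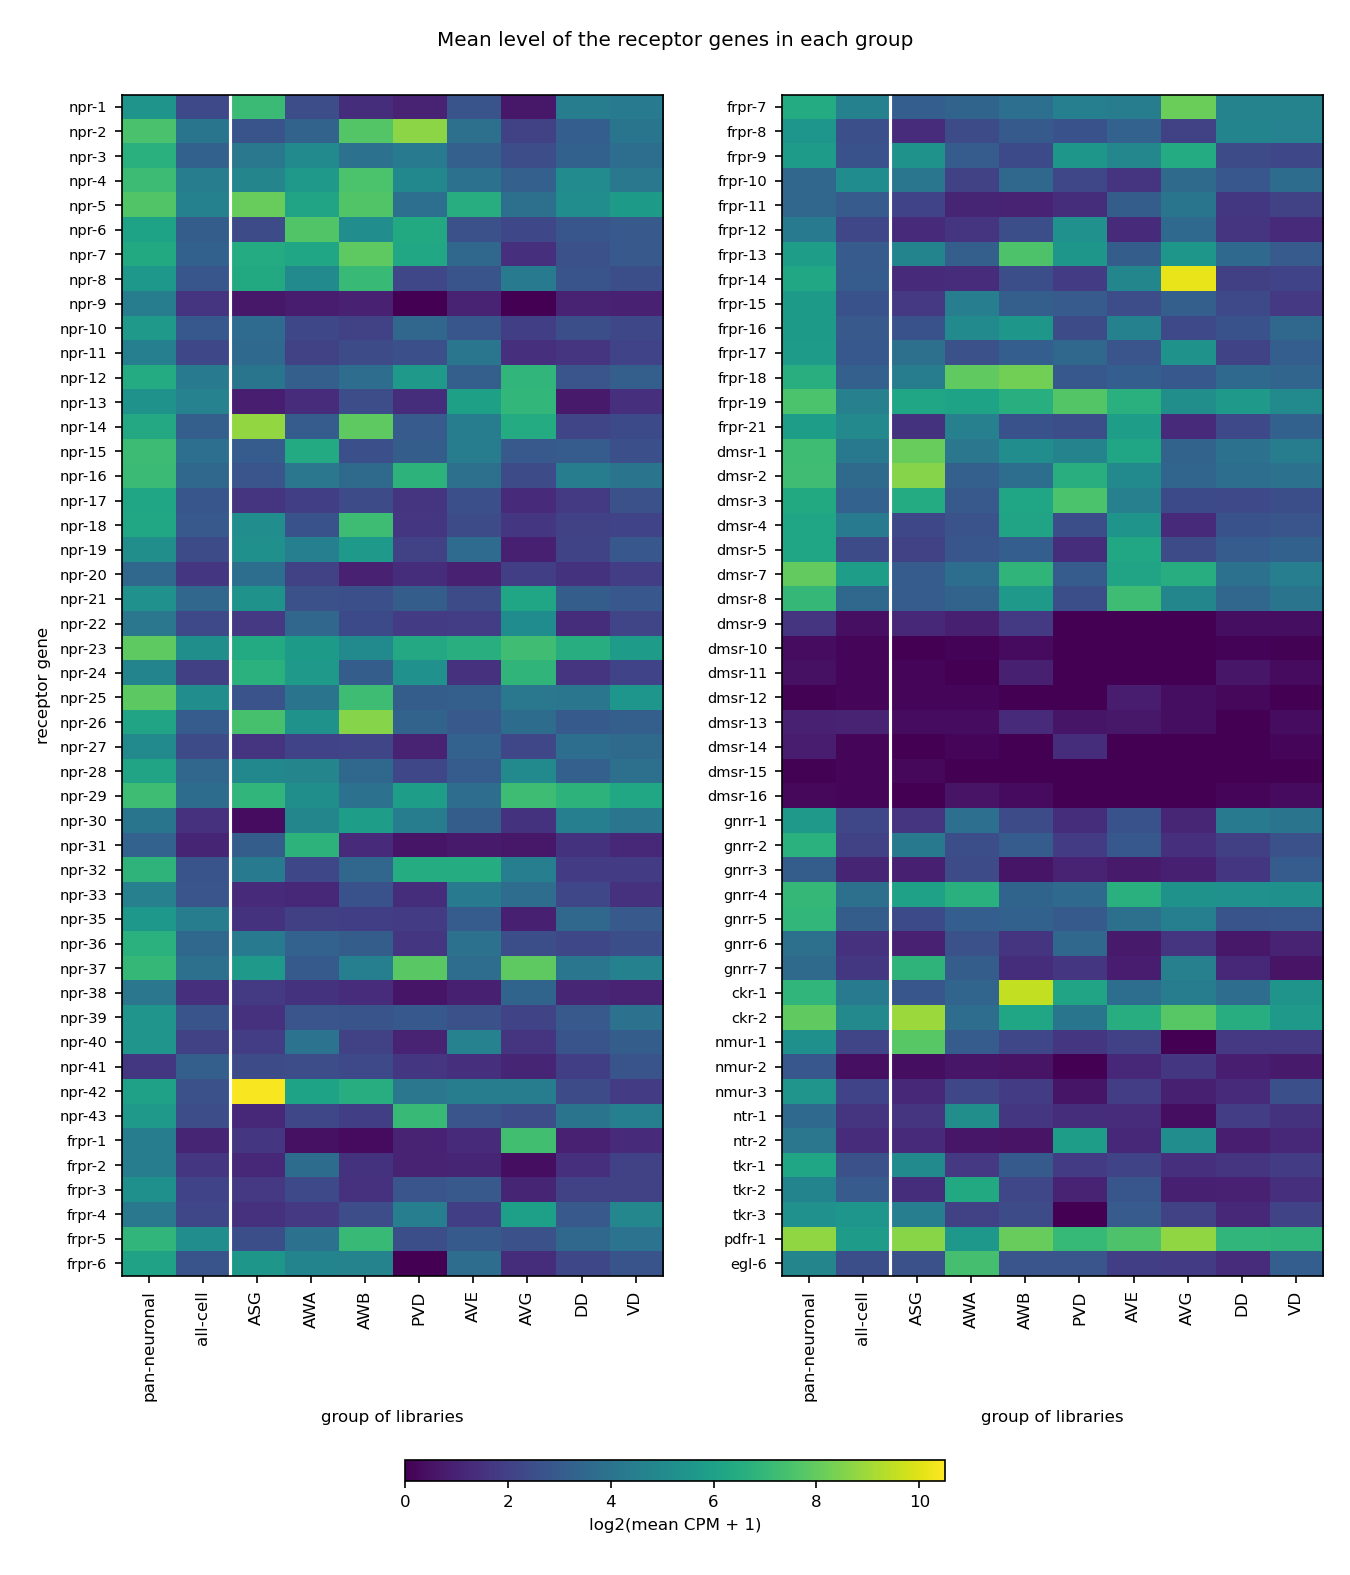
Mean level of each of the 96 receptor genes (rows) in the 10 groups (columns), as the log2 of mean CPM plus 1, with the reference groups left of the white line. Some types have bright genes that are dark elsewhere, such as npr-42 in ASG, frpr-14 in AVG and ckr-1 in AWB, while dmsr-9 to dmsr-16 are dark in all groups.

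Pan-neuronal libraries were first compared with all-cell libraries. Nearly all receptor genes with enough counts were higher in the neurons: 80 of the 87 tested were called higher, 2 were called lower and 5 were not called, where 32.2% of all genes tested were called higher and 26.9% lower. The median log2 difference over the 87 was 3.09, beside 0.00 over all genes tested. Of the 80, 77 lay higher in every pan-neuronal library than in any all-cell library. The same count over all genes called higher was not made, so the 77 have no baseline here. The 10 pan-neuronal markers themselves were all called higher with a median of 3.11. Their summed level was 23333 CPM in the pan-neuronal and 2402 CPM in the all-cell group.

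The largest difference among the receptors of the naming rule was that of gnrr-2, a relative of gonadotropin-releasing hormone receptors whose exons overlap those of nxf-1 on the opposite strand. It stood at 98.1, 116, 108, 108 and 94.6 CPM in the 5 pan-neuronal libraries and at 1.67, 5.32, 1.69 and 3.85 CPM in the all-cell libraries. The groups were far apart, with a log2 difference of 5.05 (SE 0.50, adjusted p = 4.47e-09 in edgeR). Other receptors with large differences were npr-32 (4.27, SE 0.63), dmsr-5 (4.08, SE 0.47), frpr-1 (3.96, SE 0.65), gnrr-5 (3.96, SE 0.43) and tkr-1 (3.87, SE 0.45), the last a relative of tachykinin receptors. All libraries of the pan-neuronal group lay above all of the all-cell group for these genes.

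The 5 receptors not called were frpr-11, frpr-21, npr-13, npr-35 and tkr-3. For tkr-3, another tachykinin receptor relative, the pan-neuronal libraries held 33.7 to 43.7 CPM. The all-cell libraries held 166, 1.77, 4.51 and 5.3 CPM, so a single library was high. That library, all-cell 27, was also the highest all-cell library for npr-13 (92.7 CPM against 0.886 to 1.93 in the others) and frpr-21 (105 CPM against 3.55 to 6.26). Without it, 85 receptors were called higher and 2 lower.

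The 2 receptors called lower in neurons were frpr-10 and npr-41. The frpr-10 level was 9.9 ± 5.06 CPM (SD, n = 5) in the pan-neuronal and 33.4 ± 24.6 CPM (n = 4) in the all-cell group, with overlapping libraries and a log2 difference of -1.76 (SE 0.54). This gene shares exon bases on the same strand with csr-1, an Argonaute gene, so its reads may belong to either. The npr-41 level was 2.23 ± 0.688 CPM in the pan-neuronal and 7.93 ± 4.79 CPM in the all-cell group, again with overlapping libraries (log2 difference -1.80, SE 0.48).

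The 3 receptors with the highest level per kilobase of exon in the pan-neuronal group were npr-25 (176 CPM per kb), dmsr-7 (167) and npr-23 (159). In the all-cell group the 3 highest were dmsr-7 (38.9 CPM per kb), tkr-3 (32.3) and npr-25 (26.4), and all-cell 27 was the highest library for each of them. A mean of at least 20 CPM was reached by 72 of the 96 receptors in the pan-neuronal group and by 15 in the all-cell group. It was reached by 31 receptors in ASG, 29 in AVG, 29 in AWB, 27 in AWA, 25 in PVD, 24 in AVE, 16 in VD and 13 in DD.

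Each sorted type was next set against the pan-neuronal group, the same 5 libraries each time, so these comparisons are not independent of each other. Most receptors were lower in any 1 type than in neurons as a whole. ASG had 8 receptors called higher and 57 lower, where 16.8% of all genes tested were called higher and 20.8% lower. AWA had 4 higher and 62 lower (all genes 18% and 19.8%), and AWB had 8 higher and 62 lower (19.6% and 24.1%). PVD had 2 higher and 58 lower (8.84% and 13.8%), AVG had 5 higher and 56 lower (11.7% and 19.7%), and AVE had 0 higher and 67 lower (13.1% and 20.5%). DD had 0 higher and 79 lower (18.3% and 20.8%), and VD had 1 higher and 81 lower (27.7% and 28.5%).

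The median log2 difference over the receptors tested lay between -2.52 in ASG and -3.51 in DD. The pan-neuronal markers were also lower in the types: their summed level was 19596 CPM in ASG, 10999 in AWB, 8235 in AVG, 8179 in AWA, 8034 in PVD, 5651 in DD, 4570 in AVE and 4080 in VD, with median log2 differences over the 10 genes from -1.13 in ASG and PVD to -1.89 in VD. Germline markers summed to 1389 CPM in AVE and 1359 in AVG, against 193.9 in the pan-neuronal and 1741 in the all-cell group. The other types held between 147.9 (ASG) and 463 CPM (VD) of them. Body-wall muscle markers summed to 26772 CPM in AVE but 12263 in AVG, against 12507 in the pan-neuronal group. The part of any of these markers in the count of lower receptors was not tested. In bulk libraries, fewer cells of a type and less RNA per cell cannot be told apart. The PVD calls rest on 2 libraries, and their number fell from 60 to 25 without PVD 62. The number called higher was 7 in AWA without AWA 20 and AWB 51, where 1865 of all genes were, against 2740 with all libraries. When the compared groups were fitted alone, it was 10 in AVG and 6 in PVD. All genes called higher also rose there, from 1770 to 2626 in AVG and from 1342 to 2365 in PVD.

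**Figure D2:**
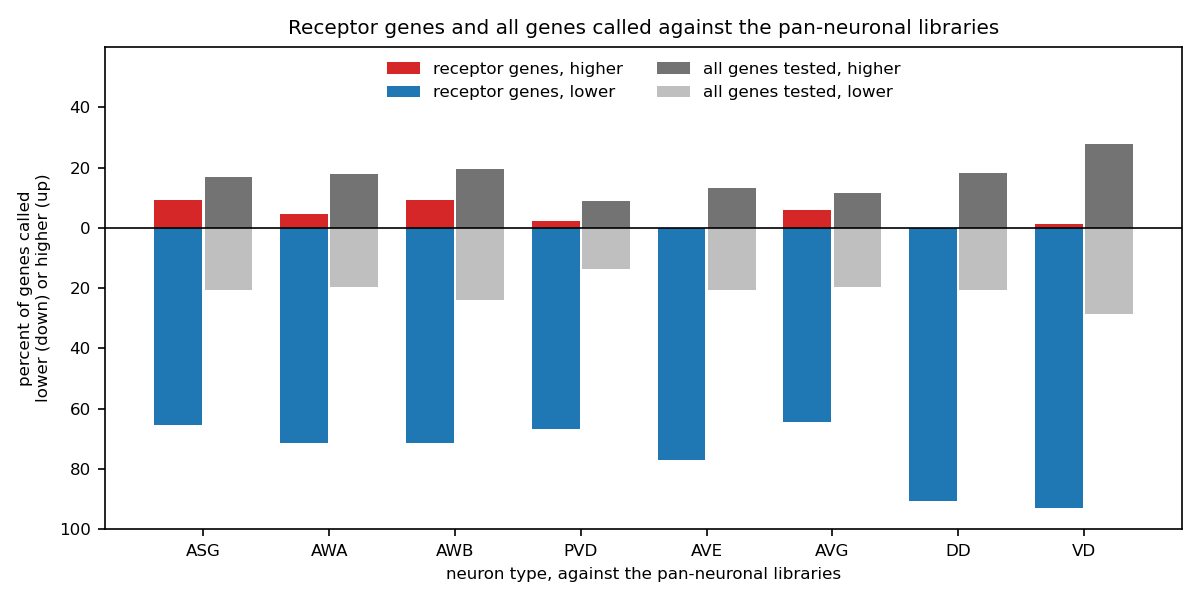
Percent of the 87 receptor genes tested (coloured) and of the 15181 genes tested (grey) called higher (up) or lower (down) than in the pan-neuronal libraries, for each neuron type. The receptor bars reach farther down than the bars of all genes in each of the 8 types, most in DD and VD with 79 and 81 receptors lower.

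Set against the neuronal markers, the summed receptor level differed less between groups. Per 1000 CPM of the 10 markers, the 96 receptors together made up 288 ± 9.55 CPM in the pan-neuronal group (SD, n = 5) and 406 ± 38.6 CPM in the all-cell group (n = 4). The highest means were in AVG (505 ± 63.5), AWB (437 ± 52.8) and AVE (424 ± 45.8), whose libraries all lay above the pan-neuronal range of 278 to 303. The lowest mean was in DD (196 ± 33.6), whose 3 libraries lay at 160 to 226 and below all pan-neuronal libraries. ASG (290 ± 42.4), AWA (281 ± 35.4) and VD (279 ± 36) overlapped the pan-neuronal range, and both PVD libraries lay above it at 314 and 359. This scale was chosen after the values were seen and is given without a test. The 10 markers are rab-3, unc-64, snt-1, ric-4, egl-21, egl-3, sbt-1, ric-19, rgef-1 and unc-104. Their sum depends most on the markers with the highest counts. ASG and PVD shared the median log2 difference given above for the 10 genes, but their mean sums were 19596 and 8034 CPM. On the scale of all counts, receptors took 0.588% ± 0.101 of the pan-neuronal counts, 0.452% ± 0.256 in AWB, 0.45% ± 0.0747 in ASG, 0.124% ± 0.0207 in VD and 0.119% ± 0.0115 in DD.

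**Figure D3:**
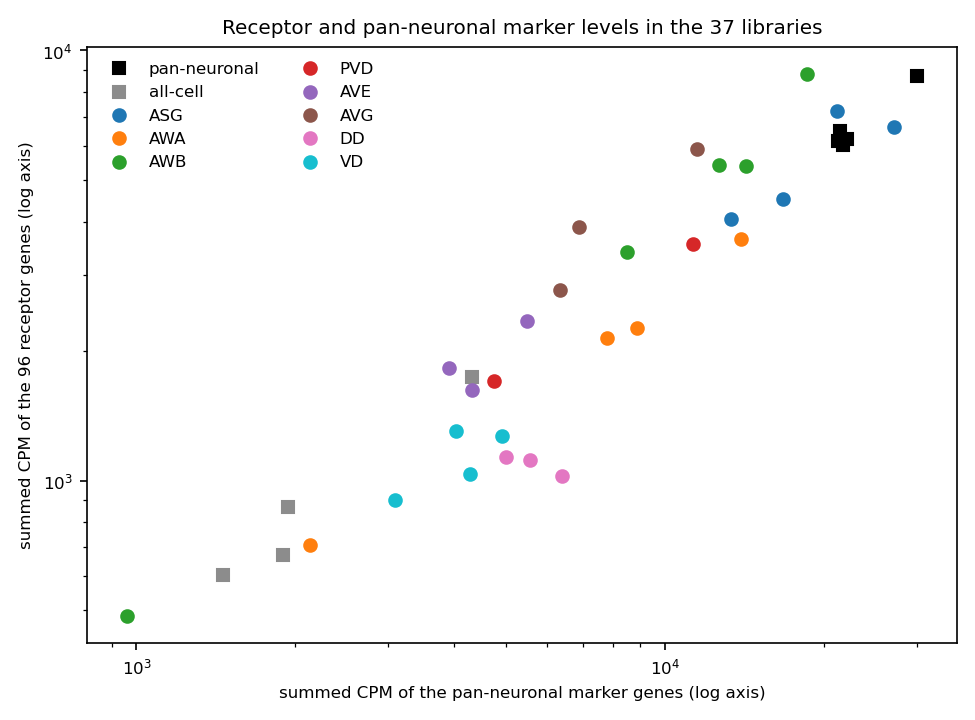
Summed CPM of the 96 receptor genes against summed CPM of the 10 pan-neuronal marker genes in each of the 37 libraries, both axes logarithmic. Both sums are lowest in AWB 51 among the AWB libraries and in AWA 20 among the AWA libraries, and the 3 DD libraries lie lowest in receptors for their marker level.

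Of the 87 receptors, 25 were called higher than the pan-neuronal group in at least 1 type, where 51.8% of all genes tested were. In all, 24 of the 87 were called higher in at least 1 type and lower in another, as were 10.9% of all genes tested. At the other end, 15 were called lower in all 8 types, where 5.38% of all genes tested were: frpr-3, gnrr-1, gnrr-2, gnrr-5, nmur-3, npr-3, npr-9, npr-10, npr-17, npr-27, npr-28, npr-35, npr-36, npr-39 and tkr-1. At a mean of 20 CPM, 30 of the 96 receptors were reached in none of the 8 types, 17 in 1 type, 16 in 2 and 3 in all 8, the last being pdfr-1, npr-23 and frpr-19.

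The highest single receptor value of ASG was that of an npr gene. The npr-42 gene (chromosome II, 4276202 to 4279268 in WBcel235) stood at 1731, 1546, 856 and 1195 CPM in ASG and at 116, 50.8, 45.5, 53.2 and 55.3 CPM in the pan-neuronal libraries. Every ASG library was above every other library of the series, the next highest being AWB 50 with 196 CPM. The log2 difference from the pan-neuronal group was 4.37 (SE 0.62, adjusted p = 7.6e-07 in edgeR). Per kilobase its ASG mean was 1152 CPM, ahead of dmsr-2 (258) and npr-14 (237).

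The npr-1 receptor binds the peptides FLP-18 and FLP-21 and is known for its control of oxygen and aggregation behaviour. It stood at 195, 142, 114 and 110 CPM in ASG and at 63.9, 38.4, 34.1, 37 and 37.2 CPM in the pan-neuronal libraries. The groups did not overlap, and the log2 difference was 1.73 (SE 0.41, adjusted p = 8.76e-04). The motor neurons came next, with 20 ± 4.72 CPM in DD (n = 3) and 18.3 ± 5.53 CPM in VD (n = 4), which overlapped. In the remaining types the mean was 0.586 CPM in AVG to 5.7 CPM in AVE.

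Other receptors for FLP-18 include npr-4 and npr-5. The npr-5 libraries held 176 to 341 CPM in ASG (mean 266), 21.6 to 304 CPM in AWB (mean 200) and 190 to 222 CPM in the pan-neuronal group, with no call for either type, and the level was called lower in AVG, AWA, DD, PVD and VD. The npr-4 level was 185 ± 126 CPM in AWB (n = 5) and 146 ± 34.6 CPM in the pan-neuronal group, which overlapped, and it was called lower in the other 7 types. Of these calls, that in AWA was lost without AWA 20 and that in PVD without PVD 62. Against the other types, AWB was called higher for both (log2 difference 3.04, SE 0.33 for npr-4 and 2.05, SE 0.28 for npr-5).

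AWB and PVD shared a high level of npr-2. It stood at 282 and 539 CPM in the 2 PVD libraries, at 262, 11.5, 127, 304 and 314 CPM in AWB and at 153 to 199 CPM in the pan-neuronal libraries. Both PVD libraries were above the pan-neuronal ones, but the difference was not called (log2 difference 1.18, adjusted p = 0.123). In the remaining 6 types the means lay between 3.22 CPM in AVG and 16 CPM in VD, and npr-2 was called lower than the pan-neuronal group in each.

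PVD alone was called higher than the pan-neuronal group for npr-43, with 101 and 170 CPM against 31.3 to 59.6 CPM (log2 difference 1.43, SE 0.43, adjusted p = 0.0147). The libraries did not overlap, but with either PVD library left out the call was lost. PVD was also the highest type for npr-16, with 57.3 and 163 CPM against at most 26.4 CPM in any library of another type. Of these, 1 lay within and 1 below the pan-neuronal range of 120 to 209 CPM, and the difference was not called.

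Both AWA and PVD carried npr-6. AWA stood at 446, 218, 101 and 33.2 CPM, PVD at 61.5 and 102 CPM and the pan-neuronal group at 56.5 to 88.6 CPM. The lowest AWA library, AWA 20, fell below the pan-neuronal range. AWA was called higher (log2 difference 1.56, SE 0.50, adjusted p = 0.014), and the call was lost without AWA 17 or pan-neuronal 11. The gene overlaps slc-9B.1 on the opposite strand, and strand use in the counting is not given, so the reads of the pair cannot be told apart.

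AWA stood alone for npr-31. Its libraries held 220, 138, 59.8 and 16.3 CPM, the pan-neuronal ones 21, 8.15, 2.96, 5.88 and 6.49 CPM, and no library of another type exceeded 9.6 CPM. AWA 20 lay below pan-neuronal 1, which held 440.4 CPM of the AWA markers, and the other libraries of the 2 groups did not overlap. The log2 difference from the pan-neuronal group was 3.59 (SE 0.57, adjusted p = 5.51e-06). It was 3.82 (SE 0.48) with AWA 20 and AWB 51 left out, where all 3 remaining AWA libraries lay above the pan-neuronal group.

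Further npr genes were high in more than 1 type. The npr-14 gene held 231 to 602 CPM in ASG and 25.9 to 462 CPM in AWB against 62.5 to 102 CPM in the pan-neuronal group, and both types were called higher (log2 difference 2.46, SE 0.48 and 1.58, SE 0.45). It overlaps nhr-85, a nuclear receptor gene, on the opposite strand, and the AWB call was lost without AWB 50. The npr-26 gene held 244 to 737 CPM in 4 AWB libraries and 23.1 CPM in AWB 51, with a log2 difference of 2.47 (SE 0.51). It was also called higher in ASG (110 to 282 CPM, log2 difference 1.31, SE 0.52), against 48 to 138 CPM in the pan-neuronal group, a call lost without ASG 13, 14 or 16, without pan-neuronal 7, 10, 11 or 12, or when scaled by library totals (adjusted p = 0.0534). For npr-24, ASG (72 to 178 CPM) and AVG (62.4 to 177 CPM) both lay above the pan-neuronal range of 19.5 to 32.2 CPM, with log2 differences of 2.03 (SE 0.45) and 2.16 (SE 0.48). Both PVD libraries and the AWA libraries other than AWA 20 (49.8 to 88.2 CPM) also lay above that range. Neither of these types was called higher than the pan-neuronal group.

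AVG and AVE differed from the sensory types for npr-13. Its level was 87, 110 and 175 CPM in AVG, 42.1, 46.4 and 97.2 CPM in AVE and 30.7 to 51.8 CPM in the pan-neuronal group. No library of the other 6 types exceeded 7.06 CPM. Neither interneuron was called different from the pan-neuronal group (adjusted p = 0.0889 and 0.547), and the other 6 types were called lower. Of these calls, that in PVD was lost without either PVD library. AVG was also high for npr-37 (191, 254 and 264 CPM), as was PVD (130 and 319 CPM), against 110 to 148 CPM in the pan-neuronal group, without a call for either.

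Receptors nearly absent from the 8 types included npr-9 and npr-17. The npr-9 receptor, known for its role in foraging through the AIB interneuron, held 14.7 to 27.1 CPM in the pan-neuronal group. No type library exceeded 3.53 CPM, and AVG and PVD had no counts, which makes the pan-neuronal mean at least 13.3-fold and at least 9.61-fold higher against a floor of 3 counts over each group. The gene overlaps gcy-9 on the opposite strand. The npr-17 gene, which encodes a receptor with opioid-like ligands, stood at 56.7 to 81.3 CPM in the pan-neuronal group and reached at most 8.56 CPM in any type library. For npr-11, which receives NLP-1 in the AIA interneuron, the pan-neuronal mean was 22.4 ± 7.29 CPM. The nearest types were AVE (16.5 ± 5.89) and ASG (11 ± 5.62), which overlapped it and were not called.

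**Figure D4:**
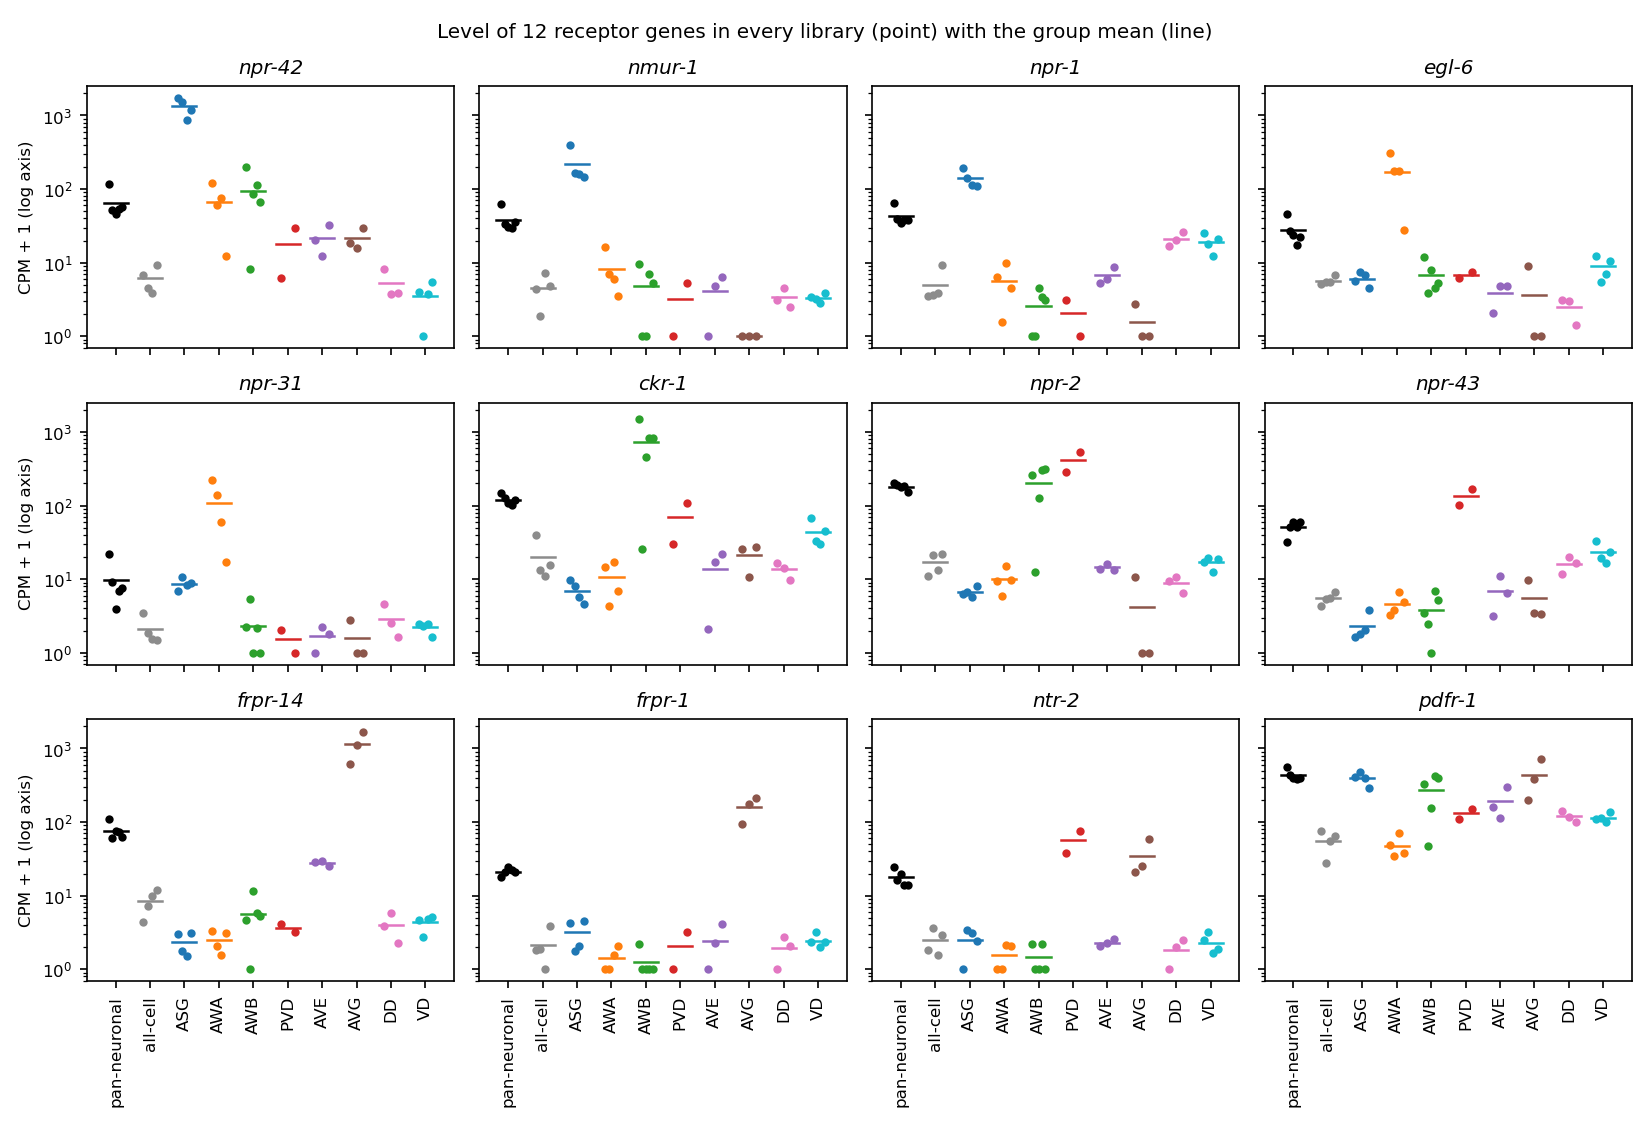
Level of 12 receptor genes in each of the 37 libraries (points, CPM plus 1 on a log axis) with the group mean (line). The 4 ASG libraries lie above all others for npr-42, nmur-1 and npr-1, the 3 AVG libraries for frpr-14 and frpr-1, and pdfr-1 is at 26.6 CPM or more in every library.

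Among the receptors for FMRFamide-like peptides, AVG held the leading value. The frpr-14 gene (chromosome II, 650955 to 654133) stood at 615, 1102 and 1687 CPM in AVG and at 109, 59.6, 74.4, 72.5 and 61.5 CPM in the pan-neuronal libraries. AVE followed with 24.1 to 28.9 CPM, and no library of the other 6 types exceeded 10.6 CPM. AVG was higher than the pan-neuronal group by a log2 difference of 3.91 (SE 0.40, adjusted p = 1.53e-08). Per kilobase the AVG mean of frpr-14 was 933 CPM, ahead of frpr-7 (160) and frpr-1 (139).

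The frpr-1 gene was high in AVG alone among the 8 types. It stood at 94, 174 and 211 CPM in AVG, at 17.1 to 23.3 CPM in the pan-neuronal group and at 3.54 CPM or less in all libraries of the other 7 types. The log2 difference from the pan-neuronal group was 2.97 (SE 0.52, adjusted p = 5e-05). The frpr-7 gene stood at 148, 286 and 422 CPM in AVG and 74.1 to 98.9 CPM in the pan-neuronal group (log2 difference 1.72, SE 0.50), without overlap, but the call was lost without AVG 45. It overlaps F39B3.4 on the opposite strand.

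The receptor EGL-6 is known for inhibiting egg laying in response to FLP-10 and FLP-17. Its gene stood at 308, 173, 175 and 26.9 CPM in AWA, at 45.2, 25.7, 23, 16.5 and 21.5 CPM in the pan-neuronal group and at 11.3 CPM or less in all libraries of the other 7 types. AWA 20 lay within the pan-neuronal range and the other 3 AWA libraries above it. The log2 difference was 2.69 (SE 0.48, adjusted p = 2.95e-05), and 2.93 (SE 0.40) with AWA 20 and AWB 51 left out. The ligand gene flp-10 was higher in AWA as well: its libraries ranged from 124.8 to 2272 CPM (median 575.9) against 124 to 183.5 CPM in the pan-neuronal group, with a log2 difference of 2.57 (SE 0.56, adjusted p = 3.7e-04).

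The frpr-18 receptor responds to FLP-2 and is known for a role in arousal. It stood at 404, 290, 246 and 28.6 CPM in AWA, at 672, 18.7, 244, 331 and 276 CPM in AWB and at 196, 73.8, 67, 78.6 and 63.2 CPM in the pan-neuronal group. In both types the library with few type markers was the low one, and in the pan-neuronal group the high one was pan-neuronal 1. AWB was called higher (log2 difference 1.69, SE 0.57, adjusted p = 0.0161), a call lost without AWB 50 or pan-neuronal 11. All other types stayed at 34.4 CPM or less. The arousal receptor frpr-3 was low in each type, at 8.69 CPM or less in all type libraries against 30.4 to 48.9 CPM in the pan-neuronal group.

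AVE had no receptor called higher than the pan-neuronal group, but stood near its level for dmsr-5, dmsr-8 and frpr-21. For dmsr-5 the AVE libraries held 66.9, 65.2 and 94.8 CPM and the pan-neuronal ones 69.3 to 75.8 CPM, with no other type library above 17.6 CPM. For dmsr-8 AVE held 139, 179 and 135 CPM, overlapping the pan-neuronal libraries, of which the highest held 173 CPM. AWB 50, at 145 CPM, lay within the AVE range. AWB was also called higher than the other types for dmsr-8, a call lost without AWB 50. The dmsr-8 gene overlaps C35A5.6 on the opposite strand. For frpr-21 AVE held 37.8, 50.2 and 85.5 CPM, around the pan-neuronal range of 49.2 to 68.1 CPM, and it overlaps eif-2A on the opposite strand. All 3 were called higher in AVE than in the other types, with log2 differences of 3.94 (SE 0.30), 3.51 (SE 0.34) and 3.49 (SE 0.48).

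ASG held the highest levels of dmsr-1 and dmsr-2. The DMSR-1 receptor is known to mediate the sleep-promoting effect of FLP-13, and its gene stood at 384, 290, 198 and 178 CPM in ASG against 127 to 207 CPM in the pan-neuronal group, which overlapped (log2 difference 0.79, adjusted p = 0.0546). The dmsr-2 gene stood at 563, 475, 219 and 304 CPM in ASG against 138 to 168 CPM, without overlap (log2 difference 1.33, SE 0.44, adjusted p = 0.0163), but the call was lost without ASG 13 or ASG 14. The peptide gene flp-13 was at 12.7 CPM on average in ASG and at 1200 CPM in DD. For dmsr-7 the 5 pan-neuronal libraries were close together at 238 to 263 CPM. AWB (114 ± 107 CPM, n = 5) and AVG (93 ± 42.2 CPM, n = 3) were not called different from them, and the other 6 types were called lower, AVE (68.7 ± 20.3 CPM, n = 3) being the highest of these, whose call was lost without AVE 40 or AVE 42.

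Of the cholecystokinin receptor relatives, which respond to NLP-12, ckr-1 marked AWB and ckr-2 was broad. The ckr-1 gene stood at 1515, 24.5, 459, 830 and 836 CPM in AWB and at 148, 127, 106, 101 and 117 CPM in the pan-neuronal group. AWB 51, the library with few neuronal markers, lay below the pan-neuronal range and the other 4 above it. The log2 difference was 2.61 (SE 0.58, adjusted p = 4.98e-04), and 2.85 (SE 0.45) with AWA 20 and AWB 51 left out. PVD (29.2 and 109 CPM) and VD (29.3 to 65.9 CPM) came next. The ckr-2 gene had a mean of at least 20 CPM in 6 types, with 384 to 689 CPM in ASG and 139, 181 and 338 CPM in AVG against 232 to 251 CPM in the pan-neuronal group. Neither type was called for it, although all ASG libraries lay above the pan-neuronal group (log2 difference 0.99, adjusted p = 0.0846).

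The neuromedin U receptor relative nmur-1, known for linking food type to lifespan, was an ASG gene among the types. It stood at 396, 164, 160 and 144 CPM in ASG and at 61.3, 32.2, 29.6, 28.9 and 35.2 CPM in the pan-neuronal group. No other type library exceeded 15.2 CPM. The log2 difference from the pan-neuronal group was 2.53 (SE 0.50, adjusted p = 1.11e-04). AVG had no counts, so the ASG mean was at least 142-fold higher against a floor of 3 counts over the 3 AVG libraries. The gonadotropin-releasing hormone receptor relative gnrr-7 also led in ASG, with 153, 123, 73.6 and 99 CPM against 4.1 to 26 CPM in the pan-neuronal group (log2 difference 3.29, SE 0.57), and AVG followed with 17.1 to 31.1 CPM.

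Both receptors for nematocin, the worm relative of oxytocin and vasopressin, were narrow and lay in different types. The ntr-1 gene stood at 52.5, 42, 38.4 and 7.42 CPM in AWA and at 27.1, 6.22, 9.26, 6.83 and 5.47 CPM in the pan-neuronal group. The groups overlapped through AWA 20, no other type library exceeded 4.92 CPM, and the log2 difference was 1.66 (SE 0.54, adjusted p = 0.0143). The call was lost without pan-neuronal 11, and the gene overlaps flp-33 on the opposite strand. The ntr-2 gene stood at 37.5 and 73.9 CPM in PVD, at 20.2, 24.4 and 57.5 CPM in AVG and at 12.9 to 23.7 CPM in the pan-neuronal group, with 2.4 CPM or less in the libraries of the other 6 types. PVD was called higher (log2 difference 1.71, SE 0.58, adjusted p = 0.0314), a call lost without either PVD library or without pan-neuronal 7, 11 or 12. The peptide gene ntc-1 had a mean of 57.6 CPM in the pan-neuronal group and of 5.99 CPM or less in each type.

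Among the remaining members of these classes, gnrr-1 and tkr-1 had lower means in each type than in the pan-neuronal group. Not all were low: gnrr-4 had means of 101 CPM in AWA and 100 CPM in AVE, against 126 CPM in the pan-neuronal group. The tkr-2 mean was 81.4 CPM in AWA against 25.7 CPM in the pan-neuronal group, without a call. The gnrr-1 gene, whose product binds NLP-47, had its highest type means in DD (18.5 ± 0.933 CPM), VD (15.6 ± 4.15) and AWA (13.1 ± 7.85) against 50.8 ± 5.09 CPM in the pan-neuronal group. The nlp-47 peptide gene was highest in AWA (135.8 to 1504 CPM) and AWB (28.8 to 1107 CPM). The tkr-1 gene was highest in ASG with 41.1, 40, 17.9 and 22.6 CPM, against 61.5 to 103 CPM in the pan-neuronal group and 14.1 CPM or less in the other types. It overlaps slc-17.2 on the opposite strand.

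The receptor for pigment-dispersing factor peptides, pdfr-1, a secretin family receptor known for sustaining roaming and arousal, was among the broadest. It overlaps M01G4.6 on the opposite strand. Its mean was 429 ± 259 CPM in AVG, 391 ± 77.7 in ASG, 269 ± 162 in AWB, 190 ± 98.2 in AVE, 130 ± 27.9 in PVD, 119 ± 22 in DD, 113 ± 14.9 in VD and 46.9 ± 16.2 in AWA. The pan-neuronal mean was 434 ± 75.2 CPM and the all-cell mean 54.8 ± 20.8 CPM. Neighbours in this order overlapped over their libraries except VD and AWA, where the lowest VD library held 99.8 CPM and the highest AWA library 69.4 CPM. AWA was called lower than the pan-neuronal group by a log2 difference of -3.21 (SE 0.45, adjusted p = 8.45e-07 in edgeR). The peptide gene pdf-1 had a mean of 2501 CPM in the pan-neuronal group and of 163.5 CPM or less in each type.

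Each type was also set against the mean of the other 7 types on the log2 scale. ASG was called higher for 32 receptors (16.8% of all genes tested), AVG for 25 (7.24%), AWA for 24 (13.2%), AWB for 23 (11.4%), PVD for 15 (4.43%), AVE for 14 (10.3%), VD for 11 (13.9%) and DD for 5 (3.77%). In all, 82 of the 87 receptors were called higher in at least 1 type, as were 58.3% of all genes tested. A type with no counts for a gene lowers the mean it is compared with without limit, which concerned the calls of nmur-1 and tkr-3 in ASG and of frpr-6 in ASG, AWA and AWB. For AWA, 8 receptors had all libraries above all of the other types once AWA 20 and AWB 51 were left out, among them egl-6, npr-31, ntr-1 and npr-15. For AWB there were 9, among them ckr-1 and npr-4. With all libraries kept, the receptors called higher with no overlap numbered 3 in AWA and 0 in AWB. Such counts were not made over all genes tested, so the 8 and 9 have no baseline here. The ASG calls were 32 higher and 19 lower, beside 2543 higher and 1966 lower of all genes tested. Scaled by library totals they were 29 higher and 27 lower, beside 1800 and 3210 of all genes.

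Scaled per kilobase, the 3 highest receptors differed from type to type. They were frpr-18 (153 CPM per kb), npr-6 (126) and egl-6 (105) in AWA, ckr-1 (510), npr-26 and frpr-18 (195) in that order in AWB, and npr-2 (247), dmsr-3 (137) and npr-37 (126) in PVD. In AVE they were dmsr-8 (82.9), npr-32 (67.1) and npr-23 (65.4). The leading 3 in DD were npr-29 (82.7), npr-23 (60.6) and ckr-2 (41.1), and in VD npr-29 (57.3), pdfr-1 (36.3) and npr-23 (35.4). At 20 CPM or more, the type with the highest mean was AVG for 17 receptors, AWB for 15, ASG for 12, AWA for 9, PVD for 8, AVE for 4, DD for 1 and VD for none.

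DD and VD, which share their transmitter, were compared directly. No receptor of the 87 tested was called in edgeR, where 0.0856% of all genes tested were called higher in DD and 0.0988% lower, and 8 receptors had an unadjusted p under 0.05. DESeq2 called 1 receptor lower in DD. The smallest p was that of egl-6, at 2.14, 2 and 0.436 CPM in DD and 11.3, 4.42, 6.09 and 9.7 CPM in VD, without overlap (log2 difference -2.47, SE 0.68, adjusted p = 0.199). The frpr-4 receptor, which responds to FLP-13, followed with a log2 difference of -2.11 (SE 0.59, adjusted p = 0.227). The marker gene flp-13 was called higher in DD (log2 difference 2.35, adjusted p = 0.0209), with 674.9 to 1706 CPM in DD and 173.2 to 340.7 CPM in VD. The 2 VD markers, unc-55 and oig-1, did not separate the sorts. Together they held 95.91 to 133.4 CPM in DD and 89.71 to 161.5 CPM in VD, which overlapped. For the receptor npr-29, the mean was 108 ± 36.3 CPM in DD and 75 ± 21 CPM in VD, and the libraries overlapped.

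**Figure D5:**
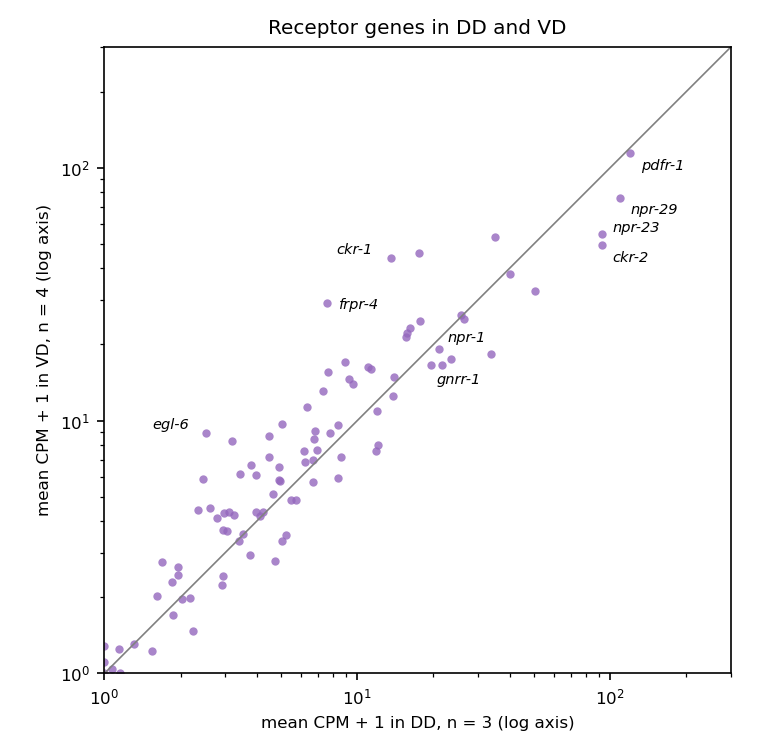
Mean CPM plus 1 of each receptor gene in DD (x axis, 3 libraries) and VD (y axis, 4 libraries), both on log axes, with the line of equal levels. Most receptors lie along the line, pdfr-1 and npr-29 are the highest in both types, and egl-6 and frpr-4 lie above the line without passing the test.

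The 9 receptors below the filter were dmsr-9 to dmsr-16 and nmur-2. The 8 dmsr genes had between 3 (dmsr-15) and 64 counts (dmsr-9) summed over the 37 libraries, and none exceeded 8.56 CPM in any library. They lie together on chromosome V between positions 6798151 and 6828886, with no other receptor of the set among them. The nmur-2 gene had 151 counts, with 6.13 ± 0.88 CPM in the pan-neuronal group and 0.363 ± 0.439 CPM in the all-cell group. These genes were not tested between groups. The floor of 3 counts over a group ranged from 0.158 CPM in VD to 2.11 CPM in PVD.

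By position, the X chromosome held 31 of the 96 (32.3%), while it holds 13.7% of protein-coding genes, chromosome V held 27 (28.1%, against 25.3%) and chromosome I held 6 (6.25%, against 14.5%). Besides the dmsr run, neighbours within 20000 bases were frpr-11, frpr-12 and frpr-13 on V, gnrr-6 and gnrr-7 on X, and npr-40 and ntr-2 on X. The neighbours frpr-12 and frpr-13 differed in their leading type: frpr-12 was highest in PVD (29.2 and 47.8 CPM) and frpr-13 in AWB (10.1 to 328 CPM). The neighbours npr-40 and ntr-2, 809 bases apart, were highest in AVE (18.3 to 34.2 CPM) and in PVD. In all, 26 receptors overlap an exon on the opposite strand and 4 on the same strand, and reads of such pairs cannot be told apart.

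The rest of the peptide system was described from 3 further lists. Of 19 peptide genes tested, most of them ligands of the receptors described above, 17 were called higher in the pan-neuronal than in the all-cell group, where 32.2% of all genes tested were, with a median log2 difference of 3.69. Against the pan-neuronal group, between 15 (AWA) and 17 (ASG, PVD and VD) of them were called lower in each type, where 13.8% (PVD) to 28.5% (VD) of all genes tested were. The few called higher were flp-7 in AVG, flp-10 and nlp-1 in AWA, and nlp-24 in DD and VD. All 12 genes of G protein subunits and effectors, such as goa-1 and egl-30, were called higher in the pan-neuronal group, with a median of 2.03. In the types between 0 (AVG and PVD) and 8 (VD) of these 12 were called lower, beside 19.7%, 13.8% and 28.5% of all genes tested in AVG, PVD and VD. Of 9 tested receptors for peptides outside the naming rule, 7 were higher and 1 was lower in the pan-neuronal than in the all-cell group, beside 32.2% and 26.9% of all genes tested.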

How the data were processed

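RNA-seq of 37 libraries was analysed from the raw count table that the authors deposited, with whole-number counts per gene and 1 column per library. STAR, SAMtools and featureCounts were used per the submitters' processing notes, and no source used here gives their versions, the strand setting or the build. The table's name carries WormBase release WS274. Gene identifiers were looked up in the WBcel235 annotation for positions, with 30584 of 30631 found. CPM per kb uses the gene length column beside the counts.

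Library totals ran from 251586 to 5415925 counts (median 1638118), and floors of 3 counts cover counting error only. Groups came from the sample titles. Genes were tested in 1 edgeR 4.0.16 quasi-likelihood fit over all libraries (R 4.3.3, limma 3.58.1, TMM factors, filterByExpr by group, Benjamini-Hochberg adjustment over 15181 genes), checked on simulated data. DESeq2 1.42.0 was an alternative, with other size factors, library totals, no filter, mitochondrial and rRNA genes left out, single groups fitted alone, and libraries left out.

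Named receptors had 20 CPM or more in the higher group, no overlap of libraries and an adjusted p under 0.05, ranked by log2 difference, or were among the 3 highest per kb, or belonged to a list of well-studied receptors. Others were chosen after their values were seen. The members and lists were chosen with earlier results of these data known. The genes npr-34 and dmsr-6 were not analysed here. No promoter or protein sequence was used.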

Additional observations from a re-analysis of the deposited data

Results flagged for a closer look

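Of 80 groups of 4 to 10 libraries checked for the named receptors and the receptor share, 20 had 1 library far from the rest by Dixon's test, which chance gives in about 1 in 20 groups. Of these, 16 were pan-neuronal 1, 3 were all-cell 27 and 1 was an ASG library. Pan-neuronal 1 held more of the AWA, ASG and AWB markers than the other pan-neuronal libraries, 440.4 CPM of the AWA list against 20.7 to 26.4 CPM. It also held 30105 CPM of the 10 pan-neuronal markers against 21257 to 22118. Its PVD markers (288.4 CPM, others 254 to 305.5) and VD markers (133.6, others 129.7 to 148.6) lay within range. Per 1000 CPM of the 10 markers its receptors made up 289.2 CPM, within the 277.5 to 302.5 of the others. The part of any of these markers in the values below was not tested.

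In pan-neuronal 1 the values far above the other 4 libraries were those of npr-42 (116 CPM against 45.5 to 55.3), npr-26 (138 against 48 to 58.8), npr-31 (21 against 2.96 to 8.15), ntr-1 (27.1 against 5.47 to 9.26), frpr-18 (196 against 63.2 to 78.6) and npr-32 (228 against 80.6 to 85.5). The same held for dmsr-1 (207 against 127 to 147), dmsr-3 (124 against 65.5 to 80), nmur-1 (61.3 against 28.9 to 35.2), npr-1 (63.9 against 34.1 to 38.4) and npr-11 (35 against 17.4 to 22.1). It also held for npr-4 (206 against 120 to 142), npr-16 (209 against 120 to 128), pdfr-1 (565 against 385 to 433) and tkr-1 (103 against 61.5 to 71.5). The receptor share of all counts in this library was 0.765%, against 0.524% to 0.575% in the others. Without pan-neuronal 1, 79 receptors were called higher and 2 lower than in the all-cell group.

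In all-cell 27, dmsr-7 stood at 185 CPM (7.09 to 25.1 in the other 3), npr-25 at 94.4 CPM (13.5 to 14.7) and tkr-3 at 166 CPM (1.77 to 5.3). In ASG 13, nmur-1 stood at 396 CPM against 144 to 164 CPM in the other 3 ASG libraries.

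In all, 24 of the 87 receptors tested were called higher than the pan-neuronal group in at least 1 type and lower in another. Among them were npr-42, npr-26 and nmur-1. Of all genes tested, 10.9% met the same rule. The types share the pan-neuronal libraries, and the difference between those types was not tested.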

How the results depend on the processing

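Of 571 calls of named receptors, 105 were lost in at least 1 alternative, and no direction was reversed. Scaling by library totals moved the median of all genes by -0.47 on the log2 scale between pan-neuronal and all-cell libraries, and dropping the filter moved it by 0.89, with 79 and 81 receptors called higher. DD against the other types gave 5 receptors, and 8 when scaled by library totals or without AWA 20 and AWB 51. Its split of 5 higher and 14 lower (all genes 572 and 263) became 8 and 12 (all genes 755 and 283) with library totals. It became 8 and 23 (all genes 922 and 641) without AWA 20 and AWB 51. By the DESeq2 test it was 6 and 23 (all genes 520 and 794). Without DD 86 it was 3 and 3 (all genes 415 and 42). DD against VD gave 0, and 1 by the DESeq2 test or without AWA 20 and AWB 51. With 1 library left out, PVD against the pan-neuronal group ranged from 25 (without PVD 62) to 60, PVD against the other types from 9 (without PVD 63) to 17, and DD against the other types from 3 (without DD 86) to 7. In the other comparisons such counts stayed within 1.5 times. The cause was not tested. A contrast with the other types has no finite value when a type is left at 0 counts, so such values are not given. The promoter motif search was not run. No paired analysis was possible because the groups share no replicate numbers. Depth limits receptors below 1 to 2 CPM in AWB, AVE, AVG and PVD, where 3 counts over the group correspond to 0.969, 0.997, 1.53 and 2.11 CPM.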
